A study of Mus musculus with 2 samples.

Results

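The 29 genes described here encode the machinery that makes cholesterol and fatty acids: 17 enzymes of the sterol pathway, 6 enzymes of fatty acid synthesis and desaturation, 4 regulators of their transcription, and the sterol carrier Stard4 and the isoprenoid synthase Ggps1. They are listed by name as a pathway, and all 29 are among the 32285 genes counted in both single-cell libraries of the study. Female C57BL/6J mice aged 6 to 8 weeks carried tumors of MC38, a mouse colon adenocarcinoma line, injected into the flank with 50% matrigel and taken at day 14. The control animals ate a normal diet and the treated animals a ketogenic diet, which began on day 4. For each diet the CD45-positive leukocytes of 5 mice were combined after removal of dead cells and magnetic enrichment, and 1 library was made with 3 prime Chromium chemistry, version 3.1. With 1 library per diet nothing can be tested between diets, so differences between diets are given as values, and every interval in the text (95%, exact) covers counting error only.

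Cells make cholesterol from acetyl-CoA through mevalonate, isoprenoids, squalene and lanosterol, and the same acetyl-CoA, made from citrate by Acly, feeds fatty acid synthesis. The genes of both branches are switched on by the SREBP transcription factors, encoded by Srebf1 and Srebf2, which Scap escorts to the Golgi for cleavage when membrane sterols are low and which Insig1 holds back when sterols are plentiful. SREBPs act at promoters through sterol response elements, often beside NF-Y at CCAAT boxes. In leukocytes the pathway is known to rise in activated and dividing lymphocytes and to be tied to interferon responses.

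The 200 bases before the annotated gene start are shown for 5 members that were high together in plasmacytoid dendritic cells: the HMG-CoA synthase Hmgcs1, the isopentenyl isomerase Idi1, the lanosterol demethylase Cyp51, the C4 sterol oxidase Msmo1 and the retention factor Insig1. They are shown because their levels in these cells stand out in the results below. The sequences are RefSeq windows of GRCm38.p6, 5′ to 3′ on the strand of the gene. Capitals mark CACNCCAC, the core of a classical sterol response element, and CCAAT, the NF-Y box, on either strand.
Hmgcs1 (chr13:119690151-119690350, plus strand): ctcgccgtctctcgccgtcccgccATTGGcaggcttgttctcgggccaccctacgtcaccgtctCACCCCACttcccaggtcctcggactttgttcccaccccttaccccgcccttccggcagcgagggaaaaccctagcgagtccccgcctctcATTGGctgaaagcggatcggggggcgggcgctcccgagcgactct
Idi1 (chr13:8885406-8885605, plus strand): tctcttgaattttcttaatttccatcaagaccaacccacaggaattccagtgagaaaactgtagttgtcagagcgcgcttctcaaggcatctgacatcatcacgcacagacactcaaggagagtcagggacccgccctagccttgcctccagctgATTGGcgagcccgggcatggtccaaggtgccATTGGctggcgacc
Cyp51 (chr5:4104698-4104897, minus strand): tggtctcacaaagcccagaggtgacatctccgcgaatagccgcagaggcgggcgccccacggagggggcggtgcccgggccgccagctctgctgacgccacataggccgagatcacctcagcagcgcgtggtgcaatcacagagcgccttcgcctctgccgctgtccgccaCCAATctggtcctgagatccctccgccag
Msmo1 (chr8:64733579-64733778, minus strand): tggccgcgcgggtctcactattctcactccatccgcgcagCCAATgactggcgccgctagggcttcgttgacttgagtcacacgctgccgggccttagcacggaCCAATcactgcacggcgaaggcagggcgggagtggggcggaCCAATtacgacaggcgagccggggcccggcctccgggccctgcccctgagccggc
Insig1 (chr5:28071212-28071411, plus strand): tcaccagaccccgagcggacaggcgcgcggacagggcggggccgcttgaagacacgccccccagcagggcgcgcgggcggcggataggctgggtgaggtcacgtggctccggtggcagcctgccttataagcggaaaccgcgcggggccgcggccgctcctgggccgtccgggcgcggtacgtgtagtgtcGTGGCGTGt
RefSeq windows of 300 bases, from 250 before to 50 after the gene start, were matched for 23 of the 29 members by symbol, 29 windows in all. CCAAT stood in 21 of these 29 windows on either strand, and in 37.4% of all 32851 windows of the table. CACNCCAC stood in 2, those of Hmgcs1 and Insig1, and in 6.24% of all windows. GGGCGG, the GC box bound by Sp1, stood in 21, and in 35.7% of all. CACGTG, the E box, stood in 6, and in 7.15% of all. No motif contains another, though sites may overlap, and a match describes the letters only.

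Barcodes with at least 500 UMIs (unique transcript molecules) and 300 genes were taken as cells: 5671 in the normal diet library and 5944 in the ketogenic one, with medians of 4200 and 3922 UMIs. Marker genes placed 4295 and 4427 of them in a class, and 714 and 854 with markers of more than 1 lineage were left out as mixed. Natural killer (NK) cells numbered 868 and 1520, monocytes 1132 and 1141, C1q-positive macrophages 892 and 324, CD8 T cells 332 and 367, MHC class II-high dendritic cells 303 and 172, Ccr7-positive dendritic cells 61 and 50, and plasmacytoid dendritic cells, the interferon-producing lineage led by Siglech and Ccr9, 28 and 36. A class of 71 and 103 cells, gated on markers of tumor-type or stromal cells and led by Rhox5, Cald1, Dcn, Serpinh1, Sparc, Col6a1 and Pcolce, is called tumor-type and had medians of 32102 and 31548 UMIs. Its gate also admits stromal cells, and the CD45 enrichment should remove both. Levels are pooled UMIs of a class scaled to CPM, counts per 1e6, and paired values give the normal diet library first. They are compared between classes and libraries and not between genes, as they are not divided by transcript length.

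The sterol enzymes stood highest in tumor-type cells and in plasmacytoid dendritic cells, in both libraries. Summed over the 17 enzymes, plasmacytoid cells held 1179 CPM (1000.4 to 1379.5) with the normal diet and 1555 CPM (1375 to 1751) with the ketogenic diet, beside 408 and 366 CPM in all other gated leukocytes. They were thus 2.89-fold (2.45 to 3.39) and 4.24-fold (3.75 to 4.79) above them. Tumor-type cells held 1426 CPM (1377 to 1475) with the normal diet and 1099 CPM (1066 to 1134) with the ketogenic diet, 3.46-fold (3.32 to 3.6) and 2.92-fold (2.81 to 3.03) above all gated leukocytes. Of 15 classes with at least 100000 UMIs per library, Gzma-dominant NK cells had the lowest sum in the normal library, 287 CPM, and Arg1-positive macrophages in the ketogenic one, 237 CPM. Of the 17 enzymes, 13 had their highest level in tumor-type or plasmacytoid cells in both libraries. The same share over all genes was not counted, so this count is a description only.

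**Figure D1:**
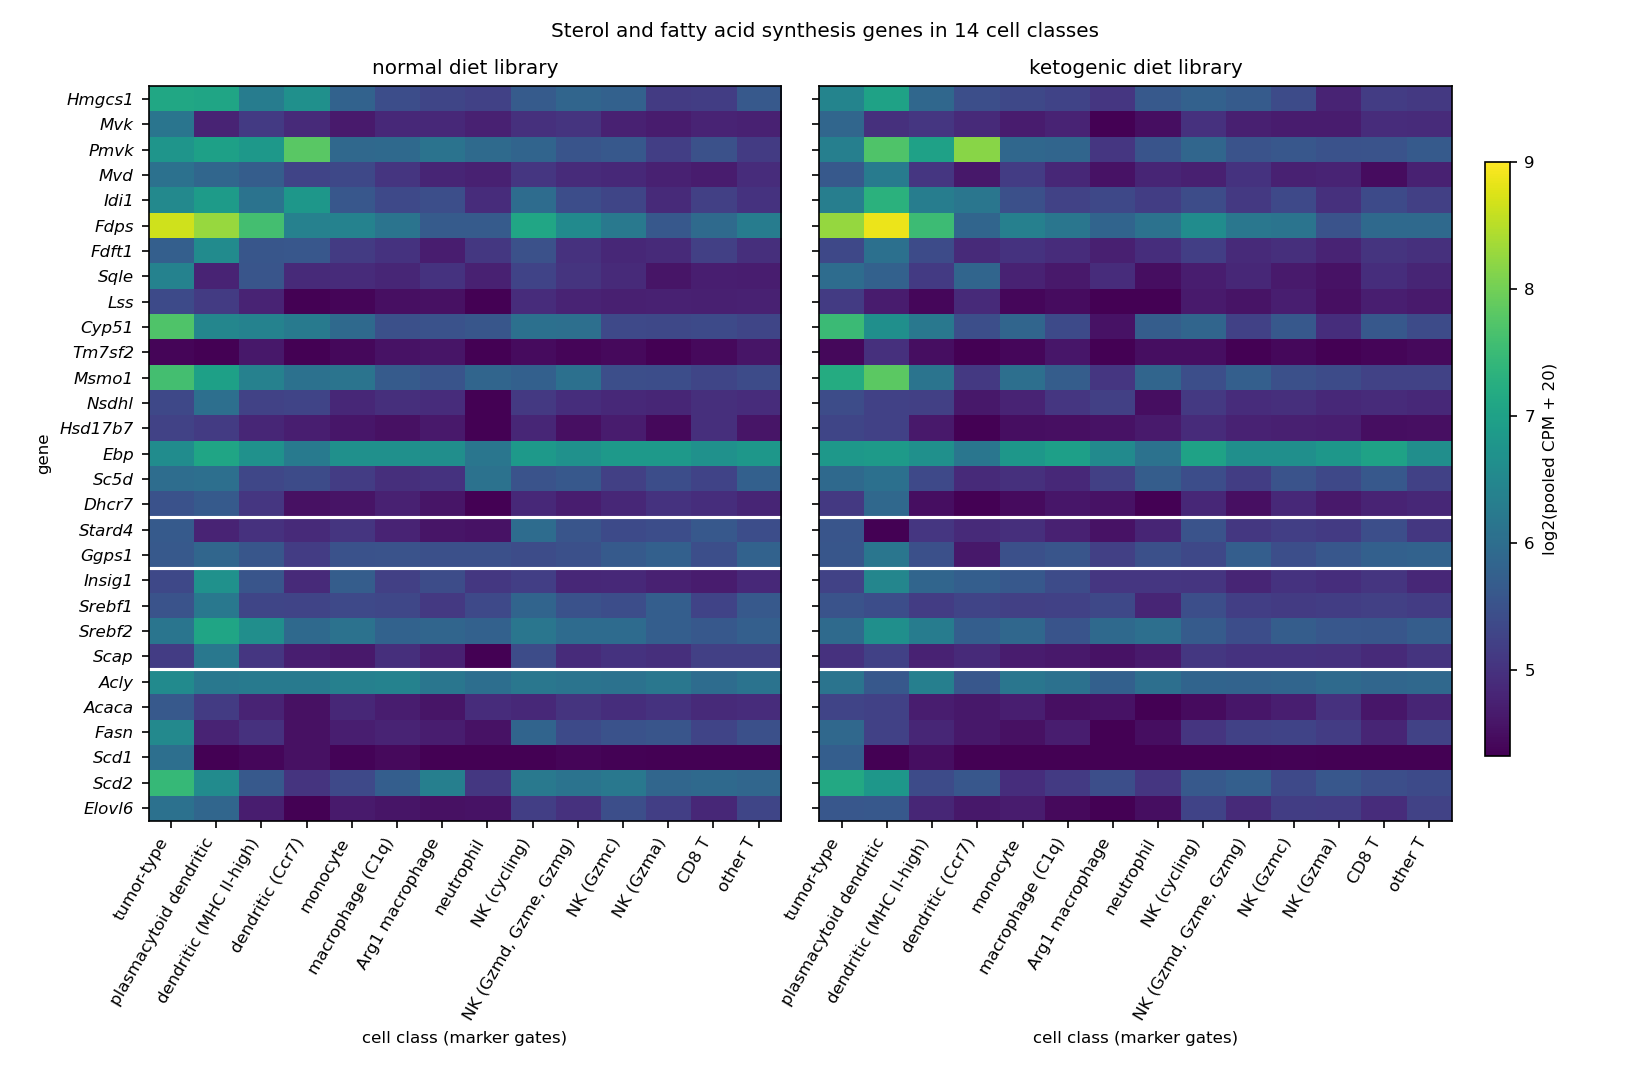
Level of each gene (rows, with white lines between sterol enzymes, Stard4 and Ggps1, regulators, and fatty acid enzymes) in 14 cell classes (columns), as log2 of the pooled CPM plus 20, in the normal (left) and ketogenic (right) diet library. The tumor-type and plasmacytoid dendritic columns are brightest for most sterol enzymes. The Ebp row varies less than most rows and is lowest in neutrophils, and the Scd1 row is bright in tumor-type cells alone among the classes drawn.

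Gene by gene, a member was called higher in a class when its CPM plus 20 was at least 1.5-fold above the comparison group in both libraries. Tested genes had at least 20 UMIs in each library over the class and its comparison group together. Within plasmacytoid cells alone, 10 members reached 20 UMIs over both libraries. In plasmacytoid cells 14 of 28 tested members were called higher, where 5.56% of all genes tested were, and 0 lower, where 5.03% were. These were 10 of 17 sterol enzymes, Scd2 and Elovl6 of 5 fatty acid enzymes, and Insig1 and Srebf2 of 4 regulators. The members' median log2 differences were 0.80 and 0.71, beside −0.08 and −0.07 over all genes. In tumor-type cells 15 of 29 members were called higher than in gated leukocytes, where 16.8% of genes were, and 0 lower, where 13% were. They were 10 of 17 sterol enzymes and 5 of 6 fatty acid enzymes, but 0 of 4 regulators. Scd1 among them reached the minimum in both libraries only through the tumor-type cells themselves, so it could only be called higher. The members' medians there were 0.78 and 0.60, beside 0.06 and 0.07 over all genes. Of the sterol enzymes, Hmgcs1, Mvd, Idi1, Fdps, Cyp51, Msmo1 and Sc5d were on both lists. Pmvk, Fdft1 and Dhcr7 were on the plasmacytoid list, and Mvk, Sqle and Hsd17b7 on the tumor-type list, a difference that was not tested.

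The plasmacytoid values rest on few cells. Of 8 tumor-type markers 7 and 5 were at 0 UMIs in them and the list summed to 7.6 and 22.9 CPM, beside 2380.3 and 2316 CPM in the tumor-type class. Macrophage markers summed to 1331 and 476 CPM in them, and the part of that RNA was not tested. The tumor-type class held Arg1-positive macrophage markers at 2549 and 2454 CPM, whose part was not tested, and C1q macrophage markers at 146 and 25.5 CPM. Arg1-positive macrophages themselves had sterol sums of 327 and 237 CPM. With every cell thinned to 1000 UMIs, which left out 1 and 0 plasmacytoid and 15 and 40 NK cells, 63% and 72.2% of plasmacytoid cells held a UMI of a sterol enzyme, as did 59.4% and 52.5% of tumor-type, 27.1% and 25.3% of NK cells and 25% and 28.2% of macrophages. Before thinning these shares were 92.9% and 97.2%, 95.8% and 97.1%, 66.5% and 60.7% and 69.4% and 66.4%.

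Among the early enzymes, which build mevalonate and turn it into farnesyl diphosphate, Fdps had the widest span between classes. Fdps makes farnesyl diphosphate, the branch point to sterols and prenyl groups. It stood at 384 and 285 CPM in tumor-type cells and at 289 and 447 CPM in plasmacytoid cells, from 38 and 78 UMIs. MHC class II-high dendritic cells held 175 and 165 CPM, monocytes 64.1 and 61.9 CPM and Gzma-dominant NK cells 28.7 and 25.9 CPM. Hmgcs1, which condenses acetyl groups into HMG-CoA, stood at 117 and 66.5 CPM in tumor-type, 114 and 109 CPM in plasmacytoid and 23.2 and 18.4 CPM in macrophages. Idi1, which interconverts the isoprene units, was at 98.9 and 138 CPM in plasmacytoid, 71.9 and 60.02 CPM in tumor-type and 9.56 and 11.2 CPM in Gzma-dominant NK cells.

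Pmvk, the phosphomevalonate kinase, had another order. Its highest level in both libraries was in Ccr7-positive dendritic cells, at 204 and 267 CPM from 65 and 57 UMIs. Plasmacytoid cells followed with 106 and 189 CPM, then MHC class II-high dendritic cells with 93.1 and 108 CPM. Tumor-type cells held 88.8 and 61.4 CPM, monocytes 39.5 and 39.3 CPM and CD8 T cells 25 and 25.9 CPM. The kinase before it, Mvk, was highest in tumor-type cells at 50.3 and 38.3 CPM, and Mvd, the decarboxylase after it, held 46.8 and 29.5 CPM there and 38 and 57.4 CPM in plasmacytoid cells, the latter from 5 and 10 UMIs.

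Of the late enzymes, which work from squalene to cholesterol, Cyp51 and Msmo1 had the widest spans. Cyp51 stood at 189 and 162 CPM in tumor-type, 68.4 and 80.3 CPM in plasmacytoid and 40.8 and 37.5 CPM in monocytes. Msmo1 stood at 173 and 128 CPM in tumor-type, 106 and 207 CPM in plasmacytoid and 49.6 and 45.7 CPM in monocytes. Sqle, the squalene epoxidase, held 64.6 and 42.6 CPM in tumor-type and 11.1 and 5.74 CPM in NK cells, and Fdft1, the squalene synthase before it, 33.4 and 20.6 CPM and 12.5 and 11.2 CPM. Lss, which closes the sterol rings, was low in all classes, highest in tumor-type cells at 21.7 and 15.3 CPM. Nsdhl and Hsd17b7, which take part in removing the C4 methyl groups, held 20.4 and 22.5 CPM and 17.8 and 19.6 CPM there. The last steps Sc5d and Dhcr7 held 43.8 and 40.5 CPM and 25.1 and 14.5 CPM there. Tm7sf2, a sterol reductase, reached 20 UMIs in macrophages alone among the classes drawn (20 and 8 UMIs).

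Ebp, the sterol isomerase, was similar in several classes. Over the 15 classes with at least 100000 UMIs per library it ran from 51.7 CPM (neutrophils) to 114 CPM (plasmacytoid cells) with the normal diet. With the ketogenic diet it ran from 48 CPM (neutrophils) to 122 CPM (regulatory T cells). In NK cells, macrophages, monocytes, CD8 T cells and tumor-type cells it lay between 77.1 and 92.9 CPM with the normal diet and between 88.3 and 109 CPM with the ketogenic diet. Without it the plasmacytoid excess was 3.29-fold and 5.3-fold and the tumor-type excess 4.11-fold and 3.53-fold.

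Among the 15 classes with at least 100000 UMIs per library, tumor-type cells had the highest fatty acid enzyme sum. Their 6-gene sum was 424 CPM (398 to 451) with the normal diet and 292 CPM (274 to 309) with the ketogenic diet, 3.43-fold (3.18 to 3.69) and 3.19-fold (2.95 to 3.43) above gated leukocytes, while plasmacytoid cells were 1.54-fold (0.996 to 2.28) and 2.02-fold (1.38 to 2.87) above the others. Scd1, a stearoyl-CoA desaturase, was nearly limited to tumor-type cells among the larger classes. Tumor-type cells held 104 and 122 Scd1 UMIs (45.1 and 32.7 CPM), while NK cells held 2 and 1, monocytes 3 and 1, plasmacytoid cells 0 and 0 and CD8 T cells 0 and 0. Tumor-type cells were at least 27.1-fold and 24.4-fold higher than CD8 T cells, with the latter set to a floor of 3 counts per library. Macrophages held 10 and 0 Scd1 UMIs. The 11 and 17 B cells held 4 and 6, which is 242 CPM (65.8 to 619) and 219.7 CPM (80.6 to 478) of a small class, so B cells held it too.

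Scd2, a second desaturase of this family, stood at 156 and 122 CPM in tumor-type cells and was also present in lymphocytes, at 50.1 and 26.2 CPM in NK and 40.5 and 23.7 CPM in CD8 T cells. Fasn, the fatty acid synthase, was at 71.9 and 40.2 CPM in tumor-type and 26.9 and 16.7 CPM in NK cells, but at 7.75 and 5.96 CPM in macrophages and 6.41 and 3.24 CPM in monocytes. Acaca, the acetyl-CoA carboxylase that commits carbon to fatty acids, was at 29.5 and 19 CPM in tumor-type and 10.9 and 6.13 CPM in NK cells. Elovl6, which elongates palmitate, was at 46.8 and 28.4 CPM and 18.8 and 15.2 CPM there and at 4.04 and 1.62 CPM in macrophages. Over monocytes, NK cells had Fasn and Scd2 called higher, 2 of 27 members where 11.7% of genes were, and Insig1 lower, 1 of 27 where 15.1% were. Over macrophages they had Elovl6 called higher, 1 of 27 where 7.93% were, and 0 lower, where 14.6% were. Acly had the narrowest span of the 6, from 42.7 to 74.5 CPM with the normal diet and 37.9 to 51.5 CPM with the ketogenic diet over NK cells, macrophages, monocytes, CD8 T and tumor-type cells.

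None of the 4 regulators was called higher in tumor-type cells. Insig1 held 20.4 and 17.7 CPM there, below the 32 and 28.9 CPM of monocytes, and its highest levels were in plasmacytoid cells, 83.6 and 68.8 CPM from 11 and 12 UMIs. In NK and CD8 T cells it was at 10.1 and 11.2 CPM and at 5.55 and 13 CPM. Srebf2, which mainly drives sterol genes, was at 114 and 80.3 CPM in plasmacytoid, 78.9 and 58.3 CPM in MHC class II-high dendritic, 50.7 and 41 CPM in tumor-type and 42.4 and 29.4 CPM in NK cells. Srebf1, which mainly drives fatty acid genes, was at 26 and 25.7 CPM in tumor-type and 27.5 and 17.2 CPM in NK cells, and Scap at 15.6 and 11.8 CPM and 13.5 and 12.5 CPM. Ggps1, which makes geranylgeranyl diphosphate, was similar in NK cells (27.9 and 25.3 CPM), macrophages (25.6 and 27.1 CPM) and tumor-type cells (29.5 and 27.9 CPM). Stard4 was at 43.1 and 25.6 CPM in cycling NK cells, 30.3 and 27.1 CPM in tumor-type cells and 7.75 and 7.04 CPM in macrophages.

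Both dendritic classes were set against monocytes. MHC class II-high dendritic cells had a sterol sum of 759.7 and 668 CPM beside 425 and 386 CPM in monocytes, 1.79-fold (1.66 to 1.92) and 1.73-fold (1.57 to 1.91) higher. Of 24 members Pmvk and Fdps were called higher in them, where 2.26% of genes were, and 0 lower, where 3% were. Ccr7-positive dendritic cells had a sum of 715 and 553 CPM, with Pmvk and Idi1 called higher of 23 members, where 7.16% were, and 0 lower, where 8.28% were. Their fatty acid sum, 78.4 and 70.2 CPM, was not above that of monocytes, 104 and 77.4 CPM.

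Cycling NK cells had a sterol sum of 539.9 and 448 CPM, 1.47-fold (1.33 to 1.62) and 1.39-fold (1.27 to 1.52) that of other NK cells. In them 0 of 27 members were called higher, where 4.22% of genes were, and 0 lower, where 0.375% were. Their fatty acid sum was 1.1-fold (0.921 to 1.31) and 0.972-fold (0.809 to 1.16) that of other NK cells, an interval that spans 1 in both libraries. The difference between the branches was not tested. Cycling cells had medians of 10375.5 and 10104 UMIs, beside 4714.5 and 3970.5 in all NK cells, and the part of depth was not tested. NK cells rich in granzymes D, E and G had a sterol sum 1.54-fold (1.31 to 1.82) and 1.26-fold (1.1 to 1.45) that of Gzma-dominant NK cells. Hmgcs1 and Fdps were called higher of 17 members there, where 2.79% of genes were, and 0 lower, where 7.2% were. Median depth differed as well, 9963 and 8170 against 2098 and 1991 UMIs, and its part was not tested.

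**Figure D2:**
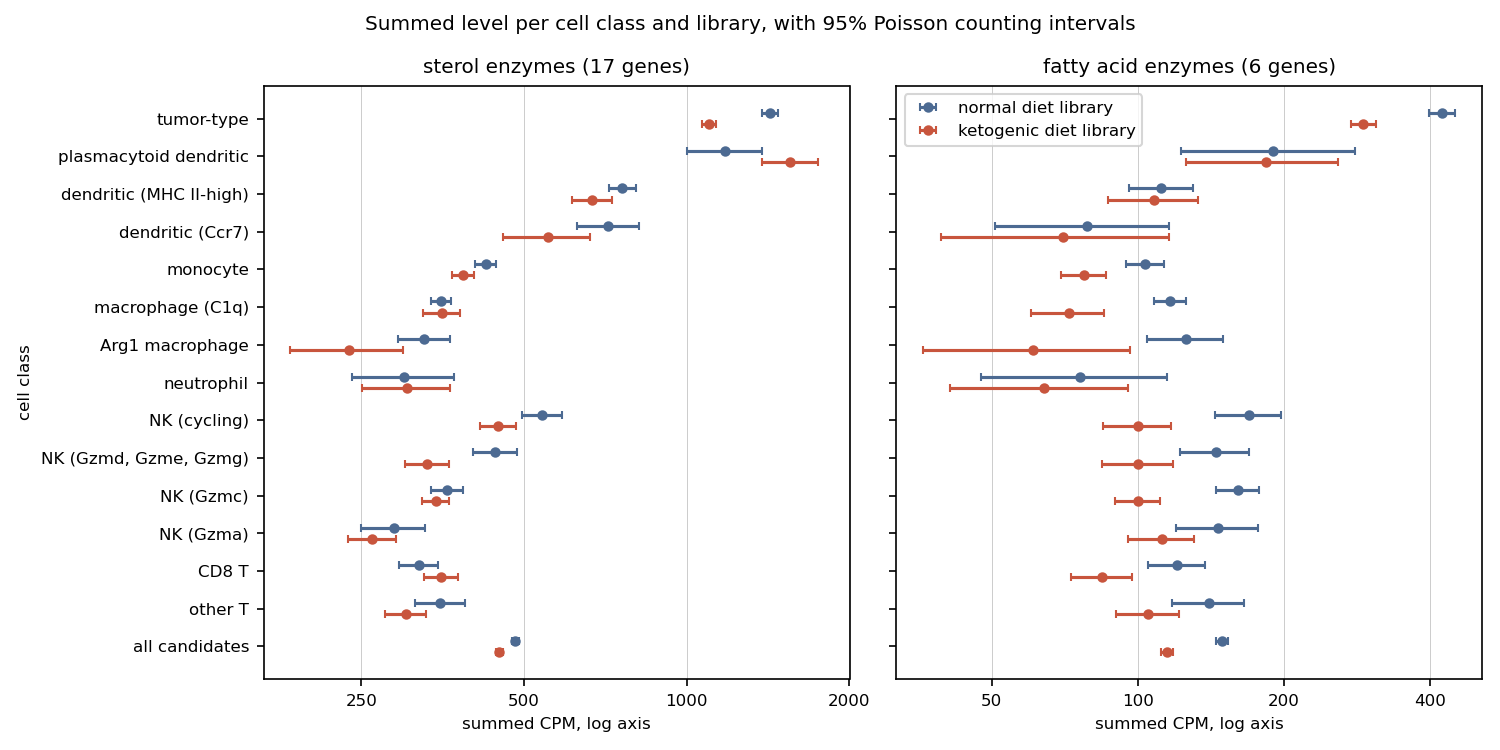
Summed CPM (log axis) of the 17 sterol enzymes (left) and the 6 fatty acid enzymes (right) in 14 cell classes and in all candidate cells, for the normal (blue) and ketogenic (red) diet library, with 95% Poisson intervals for counting error. Tumor-type and plasmacytoid dendritic cells lie farthest right for sterol enzymes in both libraries, and the ketogenic point lies left of the normal one in each class drawn for fatty acid enzymes.

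Across the 15 classes, whose points share 2 libraries and their depth, Fdps and Hmgcs1 ran most closely with the other sterol enzymes. Their median Pearson correlations with them were 0.79 and 0.78, on log2(CPM + 20) and as a description only. Ebp at 0.18 was lowest among the sterol enzymes. Lss at 0.76 and Acaca at 0.75 ran most closely with the fatty acid enzymes. Acly had medians of 0.22 with the other fatty acid enzymes and 0.14 with the sterol enzymes.

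Between diets, the fatty acid sum was lower in the ketogenic library in NK cells, macrophages, monocytes, CD8 T cells and tumor-type cells. Among these classes the sterol sum was lower in NK cells, monocytes and tumor-type cells but not in macrophages or CD8 T cells. In NK cells the fatty acid sum was 157 CPM (146 to 168) with the normal diet and 102 CPM (95.3 to 109.6) with the ketogenic diet, a ratio of 0.652 (0.59 to 0.72). In macrophages it was 117 and 72 CPM, a ratio of 0.618 (0.509 to 0.745). Monocytes held 104 and 77.4 CPM with a ratio of 0.747 (0.65 to 0.859), and CD8 T cells 120.4 and 84.4 CPM with one of 0.701 (0.574 to 0.856). In MHC class II-high dendritic cells, at 112 and 108 CPM, the ratio was 0.967 (0.74 to 1.26), and in plasmacytoid cells it was 0.966 (0.554 to 1.7). Whether the classes differ in this ratio was not tested. Over all candidate cells it was 0.77 (0.74 to 0.802), and in the mixed barcodes 0.728 (0.675 to 0.786).

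The sterol sum in NK cells was 401 CPM (384 to 419) with the normal diet and 346 CPM (333 to 359.6) with the ketogenic diet, a ratio of 0.864 (0.815 to 0.915). In monocytes it was 425 and 386 CPM, a ratio of 0.909 (0.853 to 0.97). Macrophages held 351 and 352 CPM, a ratio of 1 (0.917 to 1.1), and CD8 T cells 319.6 and 351 CPM, a ratio of 1.1 (0.985 to 1.23). Ebp, which gave the most UMIs of the sterol enzymes in these classes, weighed on the last values. It stood at 81.2 and 105 CPM in macrophages, a ratio of 1.29 (1.09 to 1.53), and at 82.7 and 109 CPM in CD8 T cells, a ratio of 1.32 (1.08 to 1.63). Without it the sterol ratio was 0.916 in macrophages and 1.02 in CD8 T cells. Among NK subsets the sterol ratio was 0.913 (0.769 to 1.09) in Gzma-dominant and 0.951 (0.87 to 1.04) in Gzmc-dominant cells. It was 0.749 (0.657 to 0.855) in granzyme D, E and G-rich and 0.829 (0.739 to 0.931) in cycling cells. MHC class II-high dendritic cells had 0.88 (0.793 to 0.974) and Ccr7-positive dendritic cells 0.772 (0.613 to 0.969). Arg1-positive macrophages had 0.724 (0.551 to 0.94) and other T cells 0.864 (0.753 to 0.992). Neutrophils had 1.01 (0.76 to 1.36) and gamma-delta T cells 1.31 (0.803 to 2.25). Plasmacytoid and regulatory T cells, above 1, and basophils and mast cells, below 1, are given below.

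Few single members were called between diets, which needed a change of at least 1.5-fold in CPM plus 20. The ratios printed are of CPM with nothing added, so several members past 1.5-fold by that ratio were not called. In NK cells Scd2 was the 1 of 27 called lower, where 0.412% of genes were, and 0 were called higher, where 0.0766% were. Scd2 stood at 50.1 CPM (44.1 to 56.7) and 26.2 CPM (22.7 to 30.01), a ratio of 0.522 (0.432 to 0.63). With 50 CPM added in place of 20, or with the median log2 ratio of genes with at least 200 UMIs set to 0, it was not called. The members' median log2 ratio was −0.14, beside −0.04 over all genes tested. Below 1 but not called were Sqle (0.518), Acaca (0.562), Fasn (0.621), Srebf1 (0.626), Stard4 (0.644) and Srebf2 (0.692). Hmgcs1 held 31.9 and 23.4 CPM, a ratio of 0.732 (0.589 to 0.911), and Fdps 67 and 50.9 CPM, a ratio of 0.761 (0.656 to 0.882). Pmvk (1.04), Nsdhl (1.08), Sc5d (1.02) and Insig1 (1.11) lay above 1. The ratios of the other members with at least 100 UMIs there were Acly 0.762, Idi1 0.781, Elovl6 0.807, Cyp51 0.815, Mvd 0.815, Dhcr7 0.82, Msmo1 0.834, Fdft1 0.9, Ggps1 0.905, Scap 0.928 and Ebp 0.951. Among NK subsets, Scd2 was called lower in Gzmc-dominant cells, 1 of 27 where 0.807% of genes were, and 0 were higher, where 0.0982% were. Cycling cells had Fasn and Scd2 lower of 25, where 1.97% were, and 0 higher, where 0.564% were. Granzyme D, E and G-rich cells had Cyp51 lower of 23, where 1.54% were, and 0 higher, where 0.549% were. Gzma-dominant cells had 0 of 19 called lower, where 2.54% were, and 0 higher, where 0.883% were.

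In macrophages Scd2 was again the 1 member called lower, of 28, where 0.714% of genes were, and 0 were called higher, where 0.228% were. It stood at 33 CPM (28.6 to 38) and 14.6 CPM (9.64 to 21.3), from 196 and 27 UMIs, a ratio of 0.443 (0.285 to 0.664), and it too was not called with 50 CPM added or the median set to 0. Acly, at 64 and 47.1 CPM, had a ratio of 0.736 (0.576 to 0.931), and Fdps, at 49.4 and 51.4 CPM, one of 1.04 (0.818 to 1.32). The ratios of the other members with at least 100 UMIs there were Srebf2 0.754, Hmgcs1 0.792, Idi1 0.863, Srebf1 0.872, Cyp51 0.899, Pmvk 0.93, Msmo1 1.05, Ggps1 1.06 and Insig1 1.31. In monocytes 0 of 26 members were called lower, where 0.965% of genes were, and 0 higher, where 0.257% were. With 20 CPM added, members at only a few CPM, such as Fasn in these cells, could not be called lower even at 0 UMIs. The same rule applied in every class and to all genes. Hmgcs1 had the lowest log2 ratio there, −0.45, at 35.2 CPM (30.1 to 41) and 20.5 CPM (16.6 to 25), a ratio of 0.581 (0.447 to 0.753), while Fdps (0.966), Msmo1 (0.923) and Cyp51 (0.92) lay nearer 1. The ratios of the other members with at least 100 UMIs there were Scd2 0.505, Sc5d 0.743, Mvd 0.757, Fdft1 0.808, Srebf2 0.813, Srebf1 0.814, Stard4 0.828, Acly 0.835, Idi1 0.85, Insig1 0.902, Ggps1 0.958, Pmvk 0.993 and Ebp 1.1. In CD8 T cells 0 of 26 were called lower, where 1.51% were, and 0 higher, where 0.289% were. The members' median log2 ratio there was −0.03, beside −0.05 over all genes. The ratios of the other members with at least 100 UMIs there were Scd2 0.585, Stard4 0.821, Acly 0.889, Srebf2 0.96, Fdps 0.966, Pmvk 1.04, Cyp51 1.34 and Ggps1 1.42. In the other T cells 0 of 25 were called lower, where 1.13% were, and 0 higher, where 0.56% were. In neutrophils 0 of 8 were called lower, where 11.7% were, and 0 higher, where 10.2% were.

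**Figure D3:**
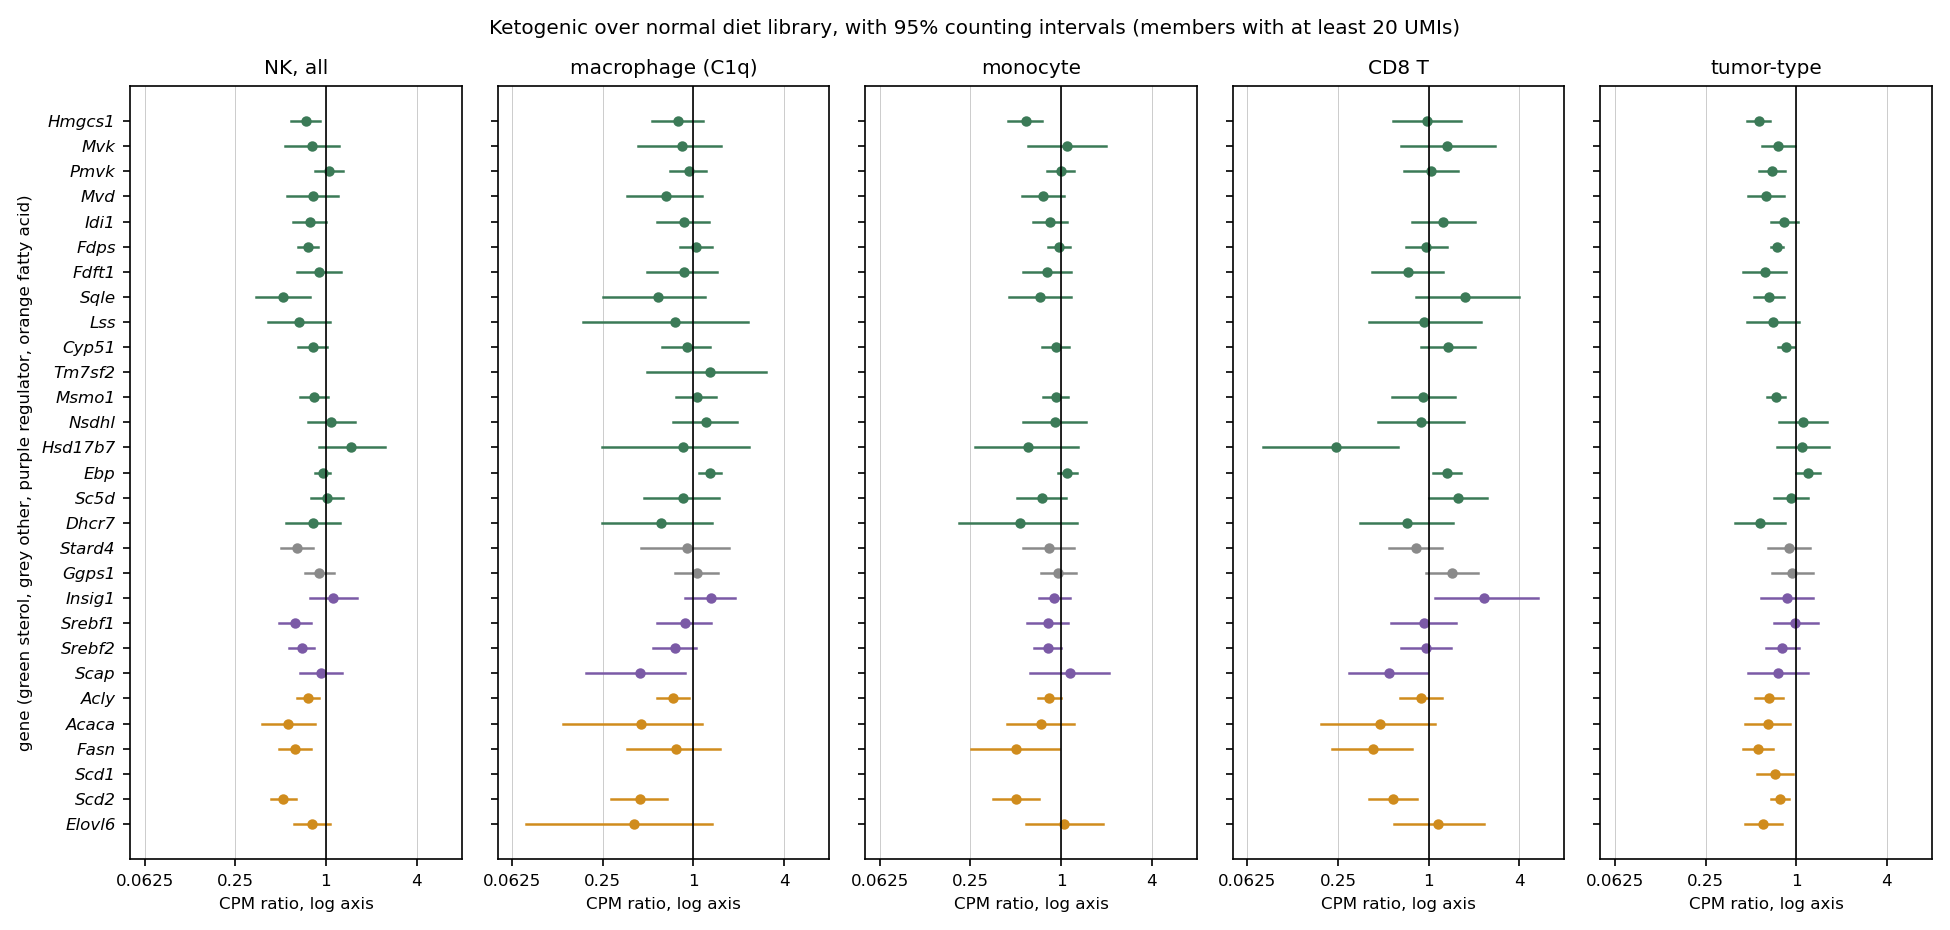
Ratio of CPM, ketogenic over normal diet library (log axis, 95% counting intervals), of each member with at least 20 UMIs in NK cells, macrophages, monocytes, CD8 T cells and tumor-type cells. Scd2 lies left of 1 in all 5 panels, Ebp lies right of 1 in all but NK cells, and most members of tumor-type cells lie left of 1.

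On the log2(CPM + 20) scale Scd2 was below 0 in 11 of the 12 classes in which it was measured, out of 14 with the NK subsets taken apart. Among all genes tested, from 52.9% (neutrophils) to 64.6% (C1q-positive macrophages) were below 0 in each of the 14. The classes share 2 libraries, so such counts over classes are not separate results. Scd2 was called lower in C1q-positive and Arg1-positive macrophages and in Gzmc-dominant and cycling NK cells. In Gzmc-dominant NK cells it stood at 52.8 and 21.2 CPM with a ratio of 0.401 (0.296 to 0.539), in monocytes at 20.9 and 10.6 CPM with a ratio of 0.505 (0.351 to 0.719), and in Arg1-positive macrophages at 60.9 and 23.7 CPM from 60 and 7 UMIs. The plasmacytoid class, with 76 and 91.8 CPM from 10 and 16 UMIs, was the exception. Arg1-positive macrophages had Pmvk, Cyp51 and Scd2 called lower, 3 of 13 where 13.1% of genes were, and 0 higher, where 2.81% were. Mitochondrially encoded genes had a median log2 ratio of −0.94 there, with 9 of 11 called lower, and their part was not tested. Fasn was below 0 in 10 of 10 classes and Acaca in 7 of 7, beside the same shares of all genes. Fasn was called lower in cycling NK cells, at 37 and 13.2 CPM, and in tumor-type cells.

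Free RNA moved the same way. In barcodes of at most 100 UMIs Scd2 stood at 81.1 and 21.5 CPM, the 6 fatty acid enzymes at 189 and 82.7 CPM and the 17 sterol enzymes at 469 and 378 CPM. After the largest share of free RNA that other lineages' markers allow was taken off, the Scd2 ratio was 0.559 in NK cells, 0.562 in macrophages, 0.669 in monocytes and 0.644 in CD8 T cells. Without Scd2 the fatty acid ratio was 0.712 in NK cells, 0.687 in macrophages, 0.809 in monocytes and 0.76 in CD8 T cells. The share of cells with a fatty acid enzyme UMI, thinned to 1000 UMIs, was 16.1% and 10.7% in NK cells and 9.9% and 7.21% in macrophages, against 49.1% and 35.8% and 42.8% and 26.2% before thinning.

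Transcript length moved with these ratios. Genes were sorted into 4 groups by their longest annotated transcript, with limits at the quartiles of genes with at least 100 UMIs over all cells. Medians were taken over genes with at least 20 UMIs in the class. The median log2 ratio in NK cells ran from 0.02 in the shortest to −0.09 in the longest group, and in macrophages from 0.02 to −0.13. The longest group held Fasn (10050 bases), Acaca (9513), Lss (6992), Elovl6 (5951), Scd2 (5455), Stard4 (5097), Srebf2 (5077), Scd1 (4832) and Sc5d (4787), thus 5 of the 6 fatty acid enzymes. Pmvk (1194), Mvd (1833) and Ebp (1743) were in the shortest. In NK cells the members' medians were −0.06, −0.09, −0.17 and −0.29 from the shortest to the longest group. In macrophages the 8 measured members of the longest group had a median of −0.12, beside −0.13 for all genes of that group. Mitochondrially encoded genes had medians of −0.46 in NK cells and −0.54 in macrophages. The part of length and of these genes in the members' ratios was not tested.

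**Figure D4:**
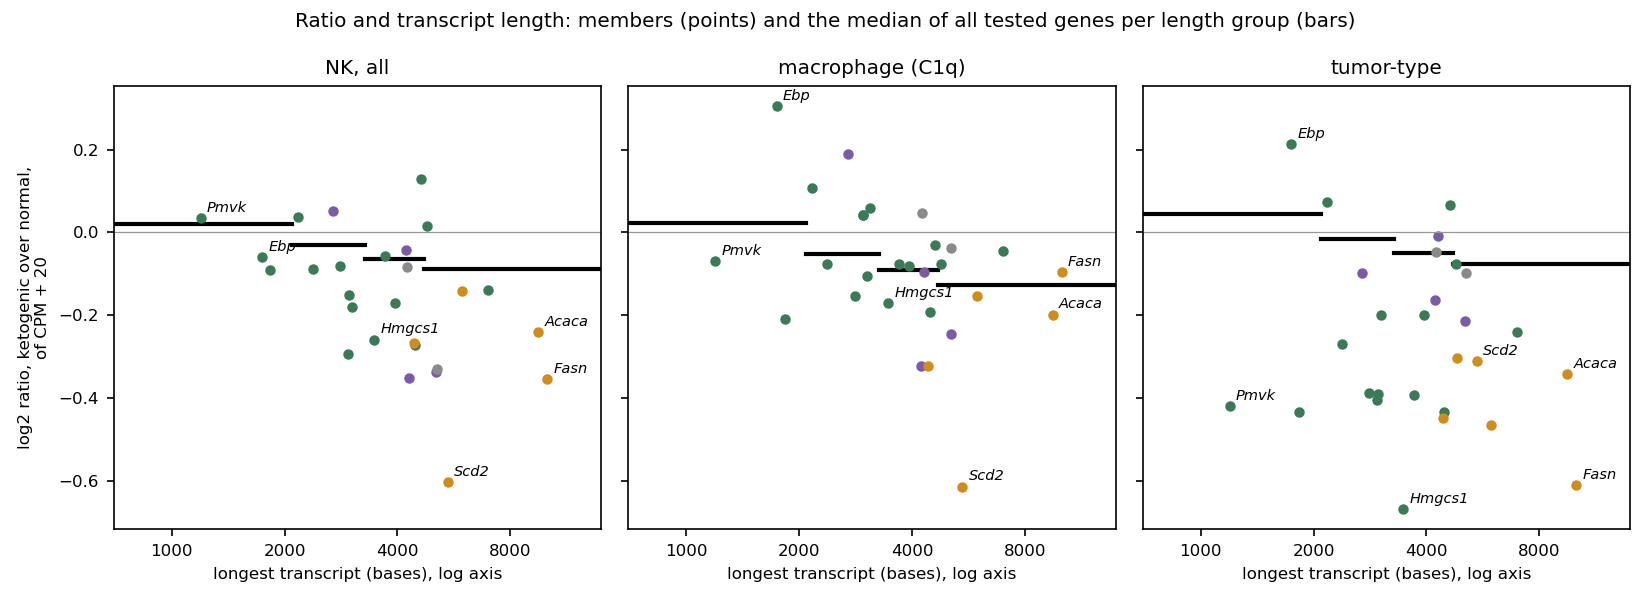
Log2 ratio of CPM plus 20, ketogenic over normal diet library, of each measured member (points: green sterol enzymes, orange fatty acid enzymes, purple regulators, grey Stard4 and Ggps1) against its longest transcript (log axis) in NK cells, macrophages and tumor-type cells. Black bars are medians of all genes in each of 4 length groups, which run lower from left to right, and Scd2 lies below the bar of its group in all 3 panels.

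Tumor-type cells had the most members below 0 of the 5 classes with ratios drawn. Their sterol sum was 1426 and 1099 CPM, a ratio of 0.771 (0.736 to 0.808), and their fatty acid sum 424 and 292 CPM, a ratio of 0.688 (0.63 to 0.751). Of 28 measured members 25 had a log2 ratio below 0, as did 56.5% of all genes, and the members' median was −0.29, beside −0.03. Hmgcs1 and Fasn were called lower, 2 of 28 where 0.579% of genes were, and 0 higher, where 0.56% were. Hmgcs1 stood at 117 CPM (104 to 132) and 66.5 CPM (58.4 to 75.3), a ratio of 0.566 (0.474 to 0.675). Fasn stood at 71.9 CPM (61.4 to 83.7) and 40.2 CPM (34 to 47.2), a ratio of 0.559 (0.445 to 0.701). All 6 fatty acid enzymes lay below 0, from −0.61 to −0.30, and Nsdhl (1.11), Hsd17b7 (1.1) and Ebp (1.2) were the 3 members above. The ratios of the other members with at least 100 UMIs there were Dhcr7 0.576, Elovl6 0.607, Fdft1 0.618, Mvd 0.63, Acaca 0.646, Sqle 0.66, Acly 0.661, Pmvk 0.691, Lss 0.705, Scd1 0.725, Msmo1 0.736, Fdps 0.743, Mvk 0.762, Scd2 0.782, Srebf2 0.809, Idi1 0.834, Cyp51 0.857, Insig1 0.868, Stard4 0.892, Sc5d 0.924, Ggps1 0.946 and Srebf1 0.989. In the shortest length group the ratios were those of Pmvk and Mvd, below 1, and of Ebp, above 1, and all genes of that group had a median log2 ratio of 0.04. The regulators had a median of −0.13. Mitochondrially encoded genes had one of −0.72 in these cells, and C1q macrophage markers differed as given above, and the part of both was not tested.

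In plasmacytoid dendritic cells the sterol enzyme sum stood higher in the ketogenic library. It was 1179 and 1555 CPM, a ratio of 1.32 (1.08 to 1.62), from 155 and 271 UMIs. Of 7 measured sterol enzymes 2 had a log2 ratio below 0. The sum of the 4 regulators was 304 and 189 CPM, a ratio of 0.622 (0.38 to 1.01). Of 10 measured members Pmvk, Fdps and Msmo1 were called higher, 3 where 8.5% of genes were, and 0 lower, where 14.3% were. Msmo1 stood at 106 and 207 CPM, from 14 and 36 UMIs, a ratio of 1.94 (1.02 to 3.89). Fdps stood at 289 and 447 CPM with a ratio of 1.55 (1.04 to 2.35), and Pmvk at 106 and 189 CPM with one of 1.78 (0.926 to 3.6). Hmgcs1, at 114 and 109 CPM, and Insig1, at 83.6 and 68.8 CPM, did not share that direction. Markers of other cells differed between the libraries in this class: Ccr7-positive dendritic markers, whose class had the highest Pmvk, summed to 7.6 and 229 CPM with 4 and 2 of 5 at 0, and neutrophil markers to 297 and 901 CPM with 3 and 3 of 7 at 0. Macrophage markers differed as given above. Mitochondrially encoded genes had a median log2 ratio of −0.76, with 8 of 11 called lower. The part of these in the members' ratios was not tested. Ccr7-positive dendritic cells had Hmgcs1, Idi1, Cyp51 and Acly called lower, 4 of 8 where 12.6% of genes were, and 0 higher, where 5.29% were. Hmgcs1 stood there at 81.6 and 23.4 CPM, from 26 and 5 UMIs. In that class macrophage markers summed to 2008 and 773 CPM, neutrophil markers to 1133 and 262 CPM, Gzmc-dominant NK markers to 866 and 239 CPM and T cell markers to 289 and 623 CPM, and their part was not tested. MHC class II-high dendritic cells had Mvd called lower, at 32.3 and 13.4 CPM from 50 and 11 UMIs, 1 of 23 where 2.9% were, and 0 higher, where 0.681% were.

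Other genes of the pathway were taken from 4 lists: SREBP processing (9 genes), fatty acid supply, elongation and desaturation (20), sterol handling (15) and isoprenoid use (14). With at least 20 UMIs, in that order, 9, 14, 12 and 14 were measured in NK cells, 9, 14, 15 and 14 in macrophages, 9, 13, 15 and 12 in monocytes and 9, 17, 11 and 14 in tumor-type cells. Of these 0 were called in either direction, where 0.412%, 0.714%, 0.965% and 0.579% of all genes were lower and 0.0766%, 0.228%, 0.257% and 0.56% higher. The sterol transporter Abcg1 was called lower in CD8 T cells at 44.9 and 21 CPM, in Gzma-dominant NK cells at 64.2 and 26.6 CPM and in neutrophils at 155 and 82.7 CPM, where 1.51%, 2.54% and 11.7% of all genes were lower. In plasmacytoid cells Soat1, which esterifies cholesterol, was lower at 122 and 57.4 CPM and Npc1, which exports it from lysosomes, at 198 and 80.3 CPM, where 14.3% of all genes were lower. In cycling NK cells Insig2, a relative of Insig1, was higher at 7.19 and 23 CPM, where 0.564% were. Arg1-positive macrophages had Rnf139, Nr1h2 and Mylip called lower, where 13.1% of all genes were, and Ccr7-positive dendritic cells Elovl1 and Rabggtb, where 12.6% were. Neutrophils also had Mylip and Nus1 lower, and Gzma-dominant NK cells Zmpste24 lower and Lipa higher, the last where 0.883% of genes were. The median of the SREBP-processing genes was −0.07 in NK cells and −0.11 in macrophages, beside −0.04 and −0.06 over all genes. Of the 4 regulators in NK cells, Srebf1 stood at 27.5 and 17.2 CPM, a ratio of 0.626 (0.49 to 0.799), and Srebf2 at 42.4 and 29.4 CPM, a ratio of 0.692 (0.572 to 0.838).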

How the data were processed

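Raw UMI counts per gene and barcode, not filtered to cells, were deposited as matrices, written by Cell Ranger 4 per the file headers. The submitters' processing notes list Cell Ranger 6.0.0, Seurat 3.2.0, mm10 and GRCm38. Totals were 37575996 and 42710007 UMIs in the normal and ketogenic library, and 7 candidate barcodes were shared.

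Cells with at most 10% mitochondrial UMIs were gated by marker lists with CPM minima, each needing at least 3 marker UMIs from 2 genes. With all minima multiplied by 0.8 and 1.25, 83.7% to 99.1% of the cells of 7 classes kept theirs. No doublet caller was run. Levels have exact Poisson, ratios exact conditional binomial and shares Clopper-Pearson intervals. Calls between diets used the 1.5-fold limit on CPM plus 20 and genes with at least 20 UMIs over both libraries in the class. Calls between classes used genes with at least 20 UMIs in each library over the class and its comparison group together. By the rule for named genes, members with at least 100 UMIs in a class are given with values and the others by range and count; members below 100 UMIs that the text also gives with values, such as those called in small classes, were chosen after their values were seen. The scripts ran in Python 3.11.15 with scipy 1.17.1, pandas 2.3.3, numpy 2.4.6 and scanpy 1.11.5 and were tested on simulated data. Transcript lengths come from GENCODE vM21. Members, marker lists, gates and tests were chosen with earlier results of these data known, including lower levels of Scd2 and Hmgcs1 in NK cells on the ketogenic diet.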

Additional observations from a re-analysis of the deposited data

Results flagged for a closer look

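In 5 cases, given by the highest and the lowest such class, a ratio of the ketogenic over the normal library lay above 1 in one class and below 1 in another, each beyond its own counting interval. The difference between the classes was not tested in any of them. The sterol and fatty acid sums and all 29 members, where measured, were searched over the gated classes, without correction for the number of intervals. The same share over all genes was not counted, so the 5 cases are a description only. The sterol sum had a ratio of 1.44 (1.01 to 2.08) in regulatory T cells and 0.367 (0.136 to 0.909) in basophils and mast cells, the latter from 16 and 8 UMIs. In the basophil and mast cell class neutrophil markers summed to 4011 and 235 CPM, MHC class II genes to 2325 and 78.2 CPM, monocyte markers to 4171 and 1459.6 CPM and Gzmc-dominant NK markers to 444 and 1525 CPM, and their part was not tested. Pmvk had 1.99 (1.1 to 3.8) in T cells outside the CD8, regulatory and gamma-delta gates and 0.278 (0.0727 to 0.758) in Arg1-positive macrophages. Fdps had 1.55 (1.04 to 2.35) in plasmacytoid dendritic cells and 0.657 (0.504 to 0.859) in cycling NK cells. Msmo1 had 1.94 (1.02 to 3.89) in plasmacytoid dendritic cells and 0.736 (0.643 to 0.843) in tumor-type cells. Sc5d had 1.56 (1.01 to 2.45) in CD8 T cells and 0.506 (0.299 to 0.851) in the T cells outside those gates.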

How the results depend on the processing

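With 1 library per diet, 28 plasmacytoid cells with the normal diet and few UMIs for many members, only counting error is known. No paired analysis was possible because each diet has 1 library. On the log2 scale the fatty acid sum stayed below 0 in 11 of 11 alternatives in NK cells and in 10 of 10 each in macrophages, monocytes and CD8 T cells. The sterol sum stayed below 0 in 11 of 11 in NK cells and 10 of 10 in monocytes, was below 0 in 3 of 10 in macrophages and above 0 in 10 of 10 in CD8 T cells. These values moved beyond their counting interval. Thinned to 1000 UMIs, the sterol sum was −0.12 in NK cells, 0.23 in macrophages, −0.29 in monocytes and 0.45 in CD8 T cells. Without Ebp it was −0.13 in macrophages, and without Acly the fatty acid sum was −1.08 in macrophages and −0.69 in monocytes. With 1 CPM added, 6 members were called lower in NK cells, 6 in macrophages, 4 in monocytes and 5 in CD8 T cells, where 3 were called higher. The share of all genes called was not counted at the changed settings, and the shares given above do not apply to them. With 50 CPM added, 0 were called lower in NK cells and 0 in macrophages, and with the median of genes of at least 200 UMIs set to 0, 0 and 0.

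The alternatives for contrasts between classes were chosen after the data were seen. So was the alternative for the diets that scaled without mitochondrially encoded and ribosomal protein genes, which is among those counted above. Each excess is given here as log2 of the fold, so every positive value means a higher level. The plasmacytoid sterol excess, 1.53 (normal diet) and 2.09 (ketogenic diet) as reported, was 1.77 in the normal library when thinned, 1.92 and 2.45 with Leiden clusters, 1.84 and 2.33 with equal weight per cell, and 1.83 in the ketogenic library without Fdps. The plasmacytoid fatty acid excess in the ketogenic library, 1.02, was 1.93 when thinned, 1.64 with Leiden clusters and 0.38 without Scd2. The tumor-type sterol excess, 1.79 and 1.55, was 1.55 in the normal library when thinned and 1.59 and 1.36 without Fdps. The tumor-type fatty acid excess, 1.78 and 1.67, was 1.96 in the normal library when thinned and 1.61 and 1.26 without Scd2. Apart from the left-out enzymes, the cause was not tested.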
